A study of Mus musculus with 4 samples.

Results

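The Ms4a genes encode tetraspan proteins of the cell membrane, and 7 of them were followed in mononuclear cells of the mouse heart. The members were chosen by name: Ms4a7, Ms4a6b, Ms4a6c, Ms4a6d, Ms4a4a, Ms4a4c and Ms4a1, which are 7 of the 31053 genes in the count tables. All 7 were present in each of 4 droplet-based single-cell RNA-sequencing libraries. The cells came from C57Bl6J mice of both sexes, 12 to 16 weeks old, carrying an EGFP reporter under the Csf1r promoter (genotype CSF1R-EGFP+), and were sorted as EGFP-positive and Ly6G-negative. The baseline library pooled 3 hearts without surgery, and each of the 3 infarct libraries held 1 heart collected 7 days after left coronary artery ligation, with the remote zone cut away. Because the sort follows a promoter, it admits any cell with Csf1r activity, and the tissue taken differed between the groups as well as the injury. The infarct libraries are the replicates of that group, whereas the baseline has no replicate.

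Ms4a1 encodes CD20, the B cell surface protein that therapeutic antibodies bind. Most of the other members followed here are known from monocytes and macrophages, where human MS4A4A associates with the beta-glucan receptor Dectin-1, and Ms4a7 is used, in the brain for instance, as a mark of macrophages that are not microglia. In people, variants near the MS4A4A and MS4A6A genes are associated with the level of soluble TREM2, a lipid receptor of macrophages and microglia. The roles of Ms4a6b, Ms4a6c, Ms4a6d and Ms4a4c in cardiac macrophages are less well defined.

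The 7 genes lie in 1 cluster on mouse chromosome 19 (GRCm38, GENCODE M21 gene bounds), within 355 kb. Ms4a1 spans chr19:11249675-11266241 and Ms4a7 spans chr19:11321039-11336146, both on the minus strand. Ms4a4a (chr19:11375523-11392790), Ms4a4c (chr19:11404770-11427246), Ms4a6c (chr19:11469366-11482192) and Ms4a6b (chr19:11516512-11531256) follow on the plus strand, and Ms4a6d (chr19:11586604-11604849) lies on the minus strand. Of the 19 Ms4a genes in the annotation, 11 fall within this stretch, including Ms4a14, which starts its own gene body 6584 bases beyond the 3′ end of Ms4a7. In the last 500 bases of their transcripts, where this 3′ assay reads, Ms4a7, Ms4a4a, Ms4a6b, Ms4a6c, Ms4a6d and Ms4a1 had no 100-base window in common with another Ms4a gene. Of 1064 such windows of Ms4a4c, 21 also occur in Ms4a4b, so reads within them do not tell the genes apart. How such reads were counted was not examined.

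RefSeq promoters (GRCm38.p6, 250 bases before to 50 bases after a start site) were given for 5 members, Ms4a7, Ms4a4a, Ms4a4c, Ms4a6b and Ms4a6c. The promoters of these 5 members, whose levels all differed in interferon-response macrophages, are shown, 5′ to 3′ on the strand of the gene, with GAAANNGAA, the core letters of an interferon-stimulated response element, in capitals on either strand. They are Ms4a6b at chr19:11518309-11518608 (plus), Ms4a6c at chr19:11469118-11469417 (plus), Ms4a4c at chr19:11407411-11407710 (plus), Ms4a4a at chr19:11375238-11375537 (plus) and the first of 2 Ms4a7 start sites at chr19:11336097-11336396 (minus).
Ms4a6b: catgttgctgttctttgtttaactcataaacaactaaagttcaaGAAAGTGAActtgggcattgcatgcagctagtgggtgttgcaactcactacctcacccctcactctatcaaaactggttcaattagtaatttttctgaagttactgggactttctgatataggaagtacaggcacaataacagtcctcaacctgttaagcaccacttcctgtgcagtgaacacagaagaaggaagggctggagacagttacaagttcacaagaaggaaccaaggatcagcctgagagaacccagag
Ms4a6c: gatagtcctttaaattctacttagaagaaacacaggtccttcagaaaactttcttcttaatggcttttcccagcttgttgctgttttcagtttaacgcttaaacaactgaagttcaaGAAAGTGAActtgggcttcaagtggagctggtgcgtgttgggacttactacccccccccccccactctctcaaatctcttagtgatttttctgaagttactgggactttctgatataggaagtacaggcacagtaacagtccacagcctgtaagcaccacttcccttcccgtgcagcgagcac
Ms4a4c: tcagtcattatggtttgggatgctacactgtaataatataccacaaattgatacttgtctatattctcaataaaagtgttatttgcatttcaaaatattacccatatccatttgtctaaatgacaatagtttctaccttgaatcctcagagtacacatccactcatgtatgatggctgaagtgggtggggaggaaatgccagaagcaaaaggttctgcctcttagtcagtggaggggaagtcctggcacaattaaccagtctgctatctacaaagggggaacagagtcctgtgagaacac
Ms4a4a: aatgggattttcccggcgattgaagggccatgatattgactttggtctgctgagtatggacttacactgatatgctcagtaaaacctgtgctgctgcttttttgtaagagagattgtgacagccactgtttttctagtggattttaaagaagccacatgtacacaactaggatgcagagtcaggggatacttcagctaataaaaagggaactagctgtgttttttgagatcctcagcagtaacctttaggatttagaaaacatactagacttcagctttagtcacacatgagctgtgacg
Ms4a7: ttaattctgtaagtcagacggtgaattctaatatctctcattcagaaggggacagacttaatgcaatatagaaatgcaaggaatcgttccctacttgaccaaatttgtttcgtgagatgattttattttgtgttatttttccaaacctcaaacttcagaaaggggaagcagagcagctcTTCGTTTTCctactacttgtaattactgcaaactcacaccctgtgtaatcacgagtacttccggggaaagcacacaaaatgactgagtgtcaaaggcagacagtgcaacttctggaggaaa
Ms4a6b and Ms4a6c carried the same letters GAAAGTGAA, starting 206 and 133 bases before the start site, and their promoters also had an unbroken stretch of 48 bases in common. The corresponding stretch was at most 9 bases in every other pair of members. The motif was found in promoters of 3 of the 5 members (Ms4a6b, Ms4a6c and Ms4a7). It was in 8.56% of all 32851 promoters of the same length, and not among the letters of the Ms4a4c or Ms4a4a window. The bases after the Ms4a4a start site were not found in a GENCODE transcript of that gene. The Ms4a4c window, like that of Ms4a6b, lies inside the GENCODE gene bounds, and start sites further upstream in the gene were not read. GAGGAA, the core of a PU.1 site, was present in the Ms4a4c and Ms4a7 windows and in 28.3% of all promoters, and TTCNNNGAA, a STAT element, was in none of the 5 members and in 8.30% of all promoters. These matches describe letters and were not tested for binding.

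Between 10117 and 10782 cells a library passed the filter, with 71093963 to 97944428 UMIs a library (a UMI is 1 counted transcript molecule) and median depths of 6398.5 UMIs a cell at baseline and 8469.5 to 8556.5 in the infarcts. Libraries had 26 to 34 cell barcodes in common pairwise. Cells were named by marker gates that used no Ms4a gene. C1q-high macrophages, with C1q genes at 15 or more per 10000 UMIs, numbered 6632 at baseline and 6041 to 7967 in the infarcts and comprised resident-type (Lyve1, Cd163, Timd4), Gpnmb-high, MHC-II-high Gpnmb-low and other macrophages, with interferon-response, cycling, transitional and Arg1 Saa3 cells set apart. The label of every library is macrophages, and C1q-high macrophages were 58.1% to 73.9% of the cells. C1q-low cells with Ly6c2 and Plac8 or Chil3 were classical monocytes, and C1q-high cells with the same monocyte genes were called transitional. Of 50 check markers outside the gates, 48 were higher in their type than in other cells in every library with 20 or more cells of the type. That was 1 library for the 4 endothelial markers. It was 3 libraries for markers of B cells, mature dendritic cells, Arg1 Saa3 and resident-type macrophages. Markers of type 1 dendritic cells could not be checked. The exceptions were F13a1 of classical monocytes (3 of 4 libraries) and Fcgr1 of C1q-high macrophages (2 of 4), and 3.74% to 7.86% of cells lay within 2-fold of the C1q limit.

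Ms4a7 differed most between infarct and baseline. Levels are in CPM, the summed UMIs of a gene scaled to the same total in every library and type. Over all cells, Ms4a7 stood at 275 CPM in the baseline library (95% Poisson interval 271 to 279) and at 1667, 2815 and 2374 CPM in infarct 1, 2 and 3. All 3 infarct libraries lay far above baseline, with a ratio of mean infarct to baseline level of 3.05 on the log2(CPM + 1) scale. Ms4a6d, the other member past 2-fold, was at 133 CPM at baseline and at 355, 443 and 349 CPM in the infarcts, a log2 ratio of 1.51. Thus 2 of the 6 members at 10 CPM or more in either group differed by more than 2-fold, both higher in the infarcts, against 8.73% of 8249 genes. With an unreplicated baseline no test was run, and intervals cover counting error only.

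Of the other members at 10 CPM or more, none was past 2-fold over all cells. Ms4a1, under 10 CPM in both groups, was at 8.58 CPM at baseline and at 2.16, 1.45 and 5.55 CPM in the infarcts (log2 ratio -1.24), lower in all 3 libraries. Ms4a6c was at 633 CPM at baseline and at 700, 821 and 732 CPM in the infarcts (log2 ratio 0.25), and Ms4a4c at 111 CPM against 164, 205 and 125 CPM (0.56). Ms4a4a was lower in each infarct library, at 20.4 CPM against 10.0, 12.7 and 11.4 CPM (-0.79). Ms4a6b was at 404 CPM against 318, 432 and 337 CPM, and its log2 ratio of -0.16 turned to 0.13 when the libraries were rescaled by TMM, a scaling to the typical gene. With TMM the log2 ratio of Ms4a4a was -0.52. The median gene was at -0.20 with scaling by total counts and at 0.09 with TMM, and the genes past 2-fold changed from 182 higher and 538 lower to 307 higher and 288 lower. Ms4a7 and Ms4a6d were past 2-fold under both scalings.

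In C1q-high macrophages, which made up most of each library, 3 of the 6 members were past 2-fold, again all higher, against 10.6% of 8184 genes. Ms4a7 was at 391 CPM at baseline and at 2359, 3365 and 2982 CPM in the infarcts (log2 ratio 2.89). Ms4a6d was at 155 CPM against 358, 412 and 368 CPM (1.29). Ms4a4c was at 27.1 CPM against 82.6, 97.3 and 79.8 CPM (1.64). For each of these genes all 3 infarct libraries lay above baseline in C1q-high macrophages as a whole. Within MHC-II-high Gpnmb-low macrophages Ms4a4c was at 37.8 CPM at baseline and at 115, 132 and 103 CPM in the infarcts. In Gpnmb-high macrophages (61 cells at baseline) Ms4a4c was at 46.3 CPM against 46.0, 61.1 and 65.2 CPM, so infarct 1 was not above baseline there. Over C1q-high macrophages as a whole, Ms4a6c (0.40) lay above baseline in all 3 infarct libraries but within 2-fold, and Ms4a4a (-0.83) lay below in all 3. Ms4a6b (-0.28) was lower in the 3 infarct libraries with scaling by total counts and at 0.03 with TMM. These cells included 2375 resident-type macrophages at baseline and 17 to 41 in the infarcts, a shift whose part was not tested. Within MHC-II-high Gpnmb-low macrophages Ms4a4a was at 9.84 CPM against 7.62, 9.78 and 9.41 CPM, and Ms4a6b at 312 against 301, 367 and 319 CPM. In Gpnmb-high macrophages Ms4a4a was at 24.2 CPM against 10.9, 11.3 and 13.4 CPM, and Ms4a6b at 288 against 308, 398 and 343 CPM.

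The difference in Ms4a7 was seen within each kind of macrophage examined. In MHC-II-high Gpnmb-low macrophages, a type present in similar numbers in all libraries (3161 to 3563 cells), it was at 354 CPM at baseline and at 1947, 2994 and 2668 CPM in the infarcts. In Gpnmb-high macrophages it was at 527 CPM (61 cells at baseline) and at 2663, 3535 and 3125 CPM. Resident-type macrophages were numerous at baseline (2375 cells, 396 CPM) and few in the infarcts (17, 31 and 41 cells), where they stood at 856, 1745 and 925 CPM. Their infarct levels were above baseline but below those of MHC-II-high and Gpnmb-high macrophages of the same hearts. Cycling macrophages, gated apart, were at 206 CPM against 1516, 2022 and 1493 CPM.

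Among baseline macrophages, the members also differed between resident-type and MHC-II-high Gpnmb-low cells of the same pooled hearts. Ms4a4a was at 27.5 CPM in resident-type cells (interval 25.2 to 30.0) and 9.84 CPM in MHC-II-high cells (8.5 to 11.3). Ms4a6b was at 551 CPM (541 to 562) against 312 CPM (304 to 320), and Ms4a6d at 197 CPM (190 to 203) against 110 CPM (105 to 114). Ms4a4c went the other way, at 16.2 CPM (14.4 to 18.1) against 37.8 CPM (35.1 to 40.6). Ms4a7 differed less, at 396 CPM (387 to 405) against 354 CPM (346 to 362). These are values of 1 library; resident-type macrophages fell under 20 cells in infarct 1, and their comparison with other macrophages was not tested.

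**Figure D1:**
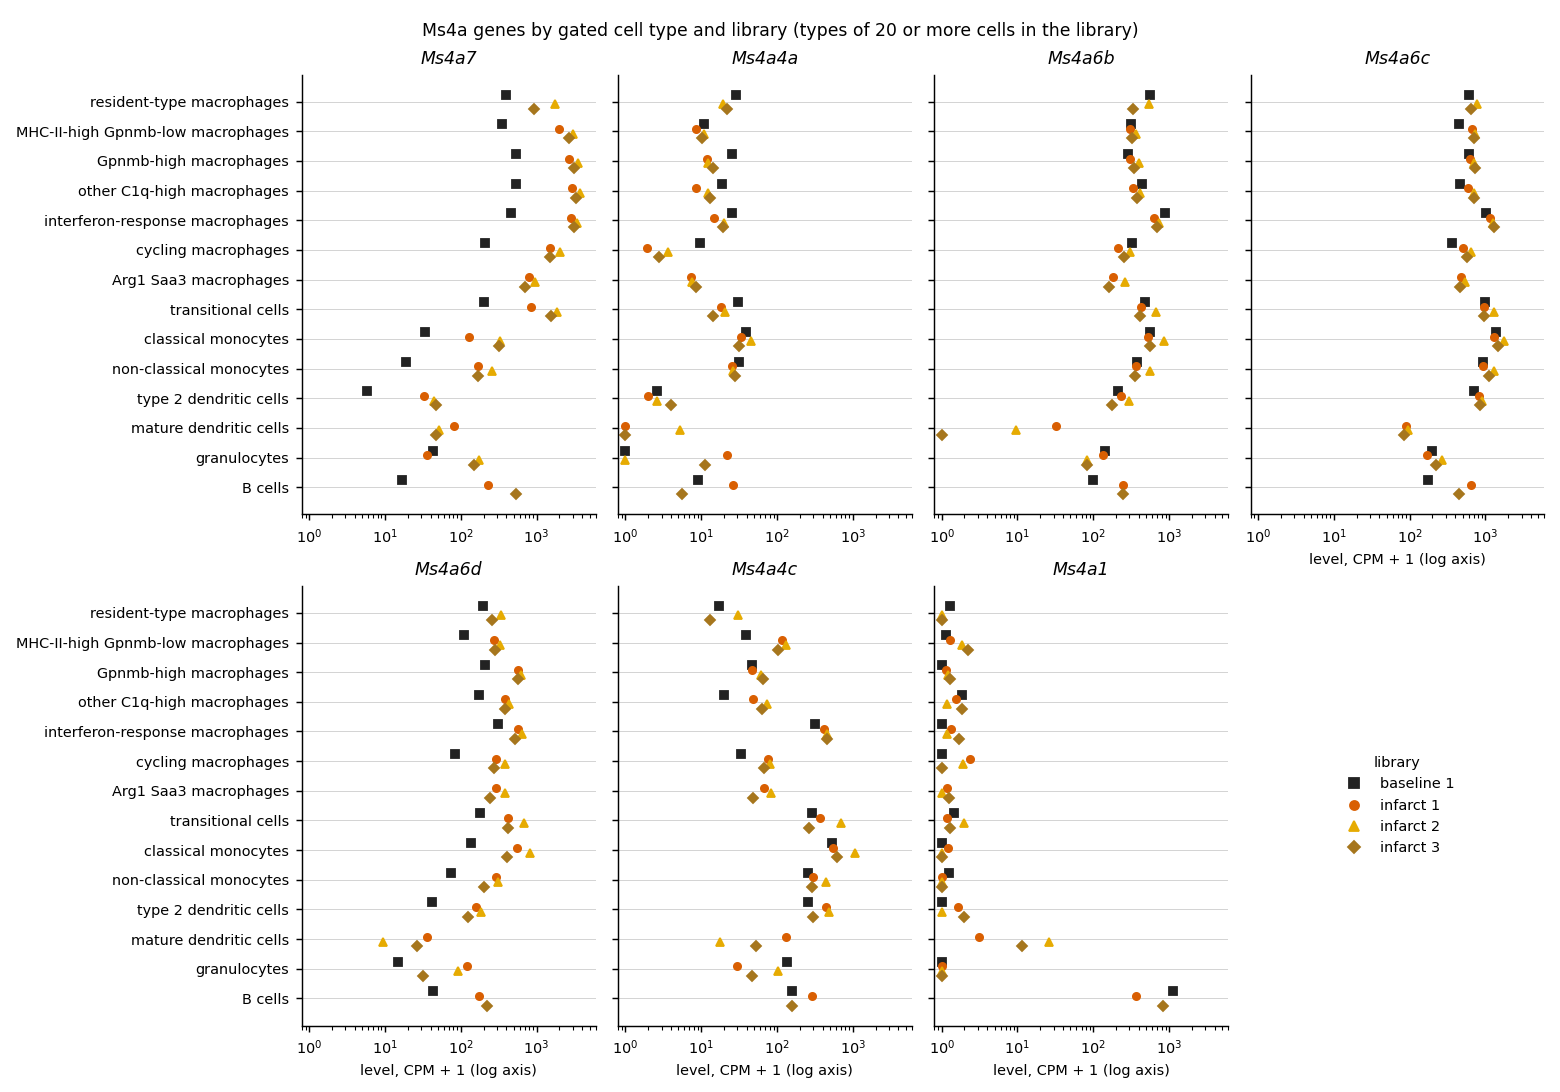
Level of each of the 7 members (x axis, CPM + 1 on a log axis) by gated cell type (rows), with 1 point a library for types of 20 or more cells in that library. The black baseline squares of Ms4a7 and Ms4a6d lie left of the coloured infarct points in nearly every row, with Ms4a7 in C1q-low granulocytes an exception, and Ms4a1 is highest in B cells, at 359 CPM or more.

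**Figure D2:**
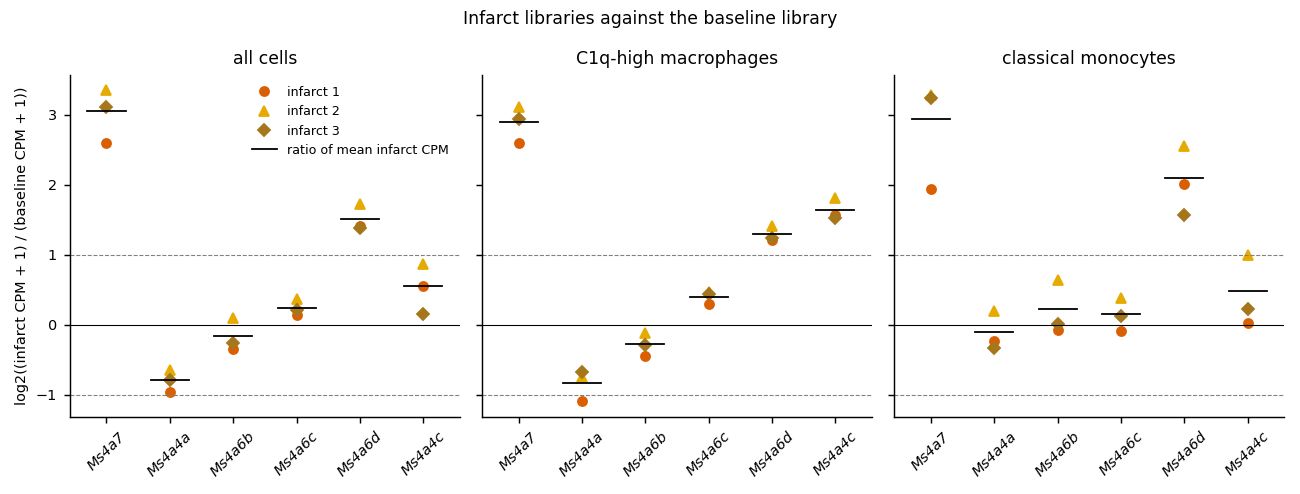
Log2 ratio of infarct to baseline level (y axis, 1 CPM added to both) for 6 members in all cells, C1q-high macrophages and classical monocytes. Points are the 3 infarct libraries, black bars the ratio of the mean infarct level, and dashed lines mark 2-fold; Ms4a7 and Ms4a6d are above the upper line in all 3 panels.

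The share of macrophages with an Ms4a7 transcript differed in the same direction once depth was made equal. After every cell was thinned to 2000 UMIs, which left out 769 C1q-high macrophages at baseline and 503, 550 and 838 in infarct 1, 2 and 3, 43.5% of them held an Ms4a7 UMI at baseline (exact binomial interval 42.2% to 44.7%). The shares in the infarcts were 86.2%, 95.5% and 92.7%. Without thinning, the baseline share was 65.2%. Ms4a6d was found in 24.0% of baseline macrophages (22.9% to 25.1%) and in 44.9%, 48.8% and 45.1% of infarct macrophages. Ms4a4c was found in 3.82% at baseline (3.34% to 4.34%) and in 11.03%, 13.5% and 11.5% in the infarcts. Each infarct library exceeded the baseline interval for all 3 genes.

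Type 2 dendritic cells (Cd209a, Flt3, Klrd1), which carry little Ms4a7, served as a reference for stray transcripts. At 2000 UMIs, 1 of 228 of them held an Ms4a7 UMI at baseline (0.439%) and 5.57%, 5.21% and 12.8% did in the infarcts, where their summed level was 32.0, 43.1 and 46.3 CPM against 4.81 CPM at baseline. Median depths were 9807 to 10559.5 UMIs in these cells and 6325.5 to 8366 UMIs in C1q-high macrophages. The low Ms4a7 level in the dendritic cells thus moved with that of the macrophages, and the part of free RNA in it was not tested.

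**Figure D3:**
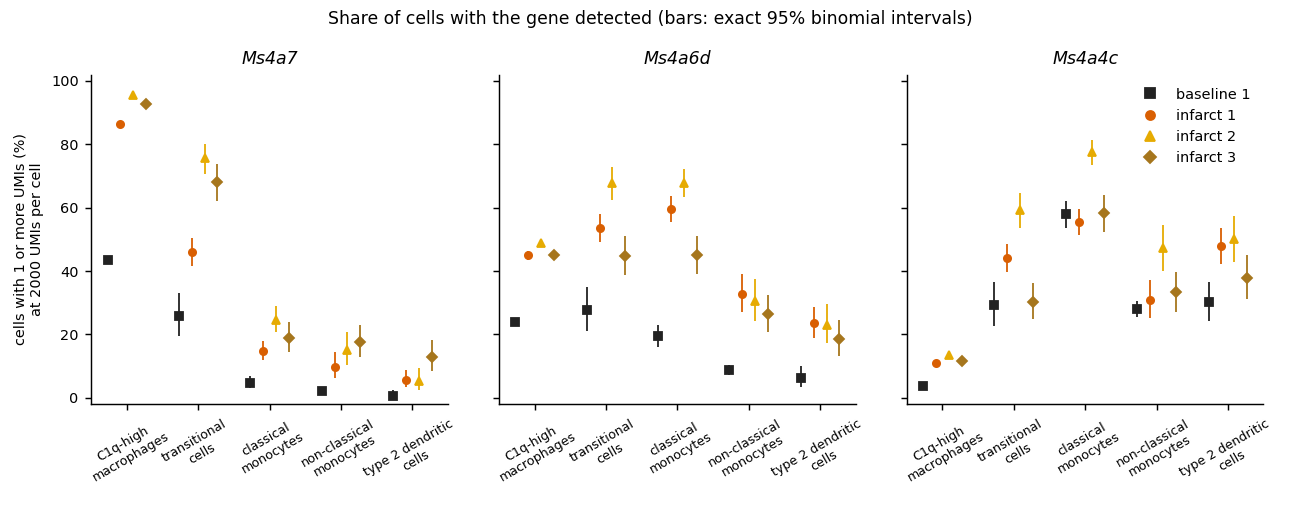
Share of cells with at least 1 UMI of Ms4a7, Ms4a6d or Ms4a4c (y axis, percent, every cell thinned to 2000 UMIs) in 5 cell types, with exact 95% binomial intervals. Ms4a7 is near the top of the axis in infarct macrophages and low in type 2 dendritic cells, whereas Ms4a4c is highest in classical monocytes.

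Classical monocytes differed from macrophages in each of the 6 members that could be tested. At baseline Ms4a7 was at 32.4 CPM in them (27.2 to 38.2) and in infarct 1, 2 and 3 at 126, 324 and 314 CPM, a log2 ratio of 2.94, and Ms4a6d was at 137 CPM against 557, 811 and 409 CPM (2.10). These 2 of 6 members were past 2-fold in monocytes, both higher in the infarcts, against 7.93% of 7639 genes. Ms4a7 in infarct monocytes stood above its level in type 2 dendritic cells of the same heart but below that in B cells, at 226, 592 and 538 CPM in 22, 11 and 37 cells. At 2000 UMIs a cell, 14.8%, 24.7% and 18.9% of the monocytes and 21.1%, 45.5% and 21.2% of the B cells held an Ms4a7 UMI, and in each heart the monocyte share was the lower. The part of free RNA or doublets in either was not tested. Ms4a6d was found in 59.6%, 67.8% and 45.0% of infarct monocytes and in 26.3%, 27.3% and 15.2% of infarct B cells, with the monocytes higher in each heart. Ms4a6c was at 1362 CPM at baseline and 1280, 1774 and 1481 CPM in the infarcts, and Ms4a6b at 557 CPM against 531, 868 and 560 CPM. In both genes the baseline library lay within the infarct range.

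Within the infarct libraries the types of the same heart were compared by edgeR quasi-likelihood tests on summed counts, with the library as a block and Benjamini-Hochberg adjusted p-values over all genes. In classical monocytes against C1q-high macrophages, all 6 members that passed the filter on low counts changed at an adjusted p under 0.01, where 31.5% of 12425 genes did. The log2 fold change of Ms4a7 was -3.59 (SE 0.18, adjusted p = 2.3e-06), lower in monocytes of all 3 hearts. The remaining 5 members were higher in monocytes of all 3 hearts. Ms4a4c rose by 3.07 (SE 0.14, adjusted p = 1.6e-06), from 79.8 to 97.3 CPM in macrophages to 546 to 1072 CPM in monocytes. Ms4a4a rose by 1.86 (SE 0.14, adjusted p = 2.0e-05), from 8.17 to 11.2 CPM to 30.1 to 43.8 CPM. The 3 Ms4a6 genes rose less, Ms4a6c by 1.14, Ms4a6b by 0.89 and Ms4a6d by 0.61. The call of Ms4a6d was the least firm (adjusted p = 0.0065), and was lost without infarct 2 (adjusted p = 0.024). It was also lost with no library block, which left 5 of 6, and in thinned cells (adjusted p = 0.010). For the tests, thinned cells were gated anew after thinning, which changed the cells compared.

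Transitional cells, C1q-high with monocyte genes, fell between both types for most members. Their median depth was 12934 UMIs at baseline and 11002 in infarct 1. Classical monocytes there had 8193 and 8828 UMIs, and C1q-high macrophages 6325.5 and 8337. The part of free RNA or doublets in the levels of transitional cells was not tested. Against classical monocytes, 5 of 6 members changed, where 10.8% of 9719 genes did. Ms4a7 stood at 834, 1879 and 1560 CPM in transitional cells of infarct 1, 2 and 3 and rose by 2.50 (SE 0.08, adjusted p = 2.4e-07). Ms4a4a fell by 1.09 (adjusted p = 0.00035), Ms4a4c by 0.83 (adjusted p = 0.0013), Ms4a6c by 0.53 (adjusted p = 0.00032) and Ms4a6b by 0.40 (adjusted p = 0.0018), while Ms4a6d was at -0.23 (adjusted p = 0.082). The Ms4a6b call was lost without infarct 1 (adjusted p = 0.011) and without infarct 2 (adjusted p = 0.023), and Ms4a6d passed without infarct 3 (log2 fold change -0.36, adjusted p = 0.00031). With no library block 0 of 6 members passed, Ms4a7 narrowly (adjusted p = 0.0102), and in cells thinned to 2000 UMIs Ms4a7 alone did. At that depth 46.0%, 75.7% and 68.2% of transitional cells in infarct 1, 2 and 3 held an Ms4a7 UMI, and 25.9% did at baseline (19.5% to 33.0%), in each library above the share of classical monocytes.

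Against C1q-high macrophages, 4 of 7 members differed in transitional cells, where 11.3% of 12338 genes did. Ms4a7 fell by 1.09 (SE 0.11, adjusted p = 0.00042), and its levels of 834 to 1879 CPM lay below the 2359 to 3365 CPM of macrophages without overlap. Ms4a4c rose by 2.25 (SE 0.18, adjusted p = 0.00017), Ms4a6c by 0.62 and Ms4a6b by 0.50. Ms4a4a was at 0.77 (adjusted p = 0.012) and Ms4a6d at 0.39 (adjusted p = 0.022), while Ms4a1, with a handful of UMIs, was at -0.20. With no library block 1 of 7 passed, while Ms4a4a passed by DESeq2 (adjusted p = 0.0057) and both Ms4a4a and Ms4a6d with stricter gates (adjusted p = 0.0032 and 0.0031). C1q is part of the gate of both types, and the comparisons against C1q-high macrophages here and below use the same macrophage sums.

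Non-classical monocytes (Ace, Treml4, Eno3 and related genes), which patrol vessels, had less of 4 of 6 members than classical monocytes, and no member rose, where 9.67% of 8737 genes changed in either direction. Ms4a6d, at 287, 313 and 201 CPM in non-classical cells of infarct 1, 2 and 3 against 557, 811 and 409 CPM, fell by 1.16 (SE 0.09, adjusted p = 2.2e-07). Ms4a4c, at 296, 442 and 292 CPM, fell by 1.13 (SE 0.08, adjusted p = 1.1e-07). In each heart both genes were lower in the non-classical cells. Ms4a6b fell by 0.65 and Ms4a6c by 0.48. Ms4a7 was at -0.32 (adjusted p = 0.19) and Ms4a4a at -0.49 (adjusted p = 0.057). Ms4a7 passed without infarct 1 (-0.65, adjusted p = 5.6e-05), in thinned cells (-1.35) and with stricter gates (-1.25), and with no library block 0 of 6 members passed.

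Type 2 dendritic cells, which present antigen to helper T cells, differed from C1q-high macrophages in 6 of 7 members, where 39.5% of 12499 genes differed. Ms4a7 fell by 6.21 (SE 0.07, adjusted p = 3.1e-14), the widest gap of any member in these comparisons. Ms4a4a, at 0.990, 1.58 and 2.98 CPM, fell by 2.53 (SE 0.31, adjusted p = 2.5e-05), and Ms4a6d, at 158, 184 and 125 CPM, fell by 1.33 (SE 0.08, adjusted p = 5.8e-08). The Ms4a4a levels in these dendritic cells rest on a few UMIs a library, so the size of its fall is imprecise. Ms4a4c, at 437, 483 and 298 CPM, rose by 2.17 (SE 0.09, adjusted p = 1.9e-09). Ms4a6c rose by 0.27 and Ms4a6b fell by 0.63, so neighbouring genes of 1 cluster moved in opposite directions in the same cells. The Ms4a6c call was lost in thinned cells (0.08, adjusted p = 0.58), and 4 of 7 passed with no library block.

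**Figure D4:**
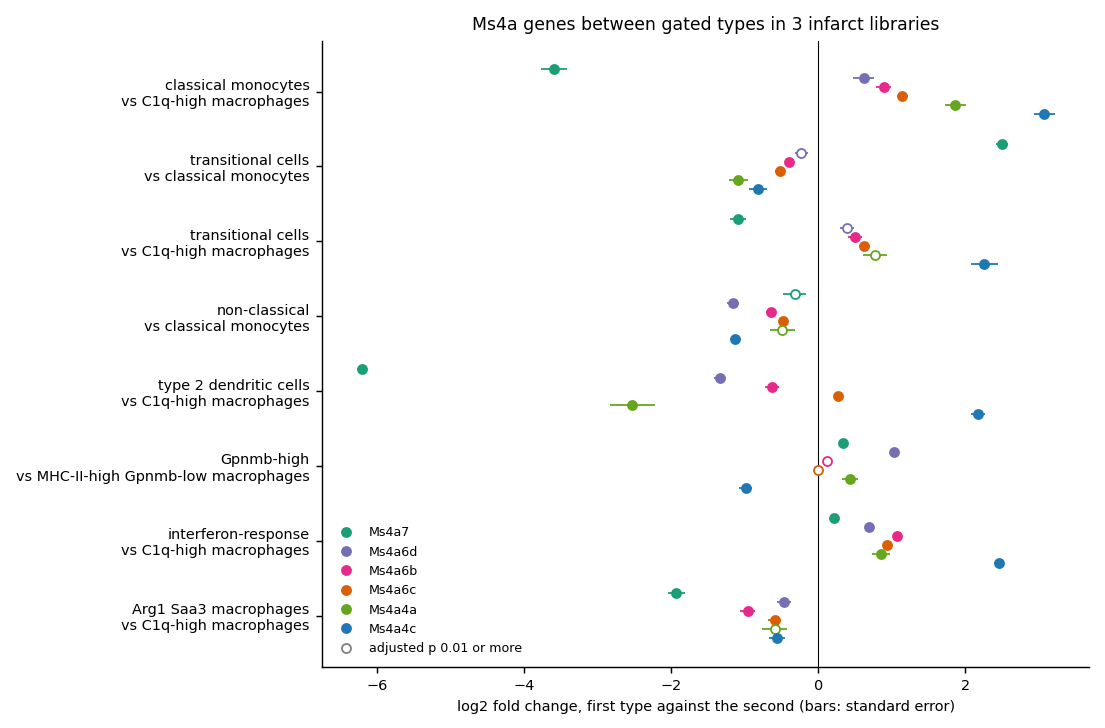
Log2 fold change (x axis, with standard error) of 6 members in the 8 comparisons of gated types in the 3 infarct libraries, with open circles for adjusted p of 0.01 or more. Ms4a7 reaches -6.21 in type 2 dendritic cells and 2.50 in transitional cells against classical monocytes, and Ms4a4c reaches 3.07 in classical monocytes.

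Inside the infarct macrophages, Ms4a6d and Ms4a4c differed in opposite directions between Gpnmb-high and MHC-II-high Gpnmb-low cells. Other C1q-high macrophages (2053 cells in infarct 1) were not in this comparison. It therefore does not tell which of these types departs from the rest of the macrophages. Ms4a6d was at 570, 619 and 571 CPM in Gpnmb-high cells of infarct 1, 2 and 3 against 277, 324 and 279 CPM, and rose by 1.03 (SE 0.05, adjusted p = 2.3e-08). Ms4a4c was at 46.0, 61.1 and 65.2 CPM against 115, 132 and 103 CPM and fell by 0.99 (SE 0.09, adjusted p = 5.1e-06). Neither pair of groups overlapped. Ms4a7 rose by 0.33 (adjusted p = 0.00061) and Ms4a4a by 0.43 (adjusted p = 0.0080), which made 4 of 6 members changed, where 28.0% of 11716 genes were. Ms4a6b was at 0.11 (adjusted p = 0.061) and Ms4a6c at -0.0047 (SE 0.044). The Ms4a4a call was lost without infarct 1 (adjusted p = 0.030), without infarct 3 (adjusted p = 0.063), by DESeq2 (adjusted p = 0.11) and in thinned cells, and with no library block Ms4a6d and Ms4a4c alone passed. Between 9.78% and 11.5% of the infarct cells considered lay within 2-fold of the Gpnmb limit.

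Interferon-response macrophages, C1q-high cells with at least 4 of Rsad2, Ifit1, Ifit2, Ifit3 and Cxcl10, were higher than C1q-high macrophages in 6 of 7 members, where 10.9% of 12301 genes changed in either direction. Ms4a4c was at 415, 458 and 459 CPM in infarct 1, 2 and 3 and rose by 2.45 (SE 0.06, adjusted p = 4.7e-23). Ms4a6b, at 639, 736 and 701 CPM, rose by 1.07 (SE 0.05, adjusted p = 1.4e-16), and Ms4a6c, at 1157, 1259 and 1290 CPM, by 0.94 (SE 0.04, adjusted p = 1.7e-16). Ms4a4a rose by 0.85 and Ms4a6d by 0.68. Ms4a7, at 2830, 3373 and 3152 CPM against 2359, 3365 and 2982 CPM in C1q-high macrophages, rose by 0.21 (adjusted p = 0.00036). The levels were nearly equal in infarct 2. It was the smallest change of the 6 and a call lost without infarct 1 (adjusted p = 0.076) and with no library block (adjusted p = 0.40). The Ms4a4a call was lost in thinned cells (adjusted p = 0.028). Of the 5 promoters shown above, those of Ms4a6b, Ms4a6c and Ms4a7 held the GAAANNGAA letters and those of Ms4a4c and Ms4a4a did not. Other start sites of Ms4a4c and Ms4a4a were not read. The baseline library, with 65 such cells, had 314 CPM of Ms4a4c in them against 27.1 CPM in its C1q-high macrophages.

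Arg1 Saa3 macrophages, gated by Arg1, Saa3 and Marco, were lower than C1q-high macrophages in 5 of 6 members, and no member was higher, where 24.3% of 12557 genes changed in either direction. Ms4a7, at 802, 949 and 712 CPM in infarct 1, 2 and 3, fell by 1.93 (SE 0.12, adjusted p = 1.8e-07). Ms4a6b, at 179, 262 and 159 CPM, fell by 0.96 (SE 0.10, adjusted p = 1.5e-05). Both were lower in every heart. Ms4a6c fell by 0.60, Ms4a4c by 0.56 and Ms4a6d by 0.47, and Ms4a4a was at -0.60 (adjusted p = 0.014). Without infarct 3 the calls of Ms4a4c (adjusted p = 0.047) and Ms4a6d (adjusted p = 0.081) were lost, and with no library block 3 of 6 members passed. This gate does not use C1q, and infarct 2 held 111 of these cells against 1363 and 802 in infarct 1 and 3.

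Ms4a1 was a gene of the B cells in the sort. Its level in B cells, gated by markers that include Cd79a, Cd79b and Ly6d, was 1108 CPM at baseline (87 cells, interval 1004 to 1219) and 359, 224 and 831 CPM in infarct 1, 2 and 3, from 22, 11 and 37 cells. The infarct values ranged widely, and their counting intervals ran from 137 to 961 CPM. C1q-high macrophages held 0.258 CPM at baseline and 0.326, 0.487 and 0.932 CPM in the infarcts. In classical monocytes a single Ms4a1 UMI was counted, in infarct 1, and 0 in the other libraries, where 3 counts would correspond to 0.694 to 1.27 CPM. At 2000 UMIs a cell, 74.7% of baseline B cells (64.0% to 83.6%) and 27.3% to 75.8% of infarct B cells held an Ms4a1 UMI, against 0.0341% to 0.144% of C1q-high macrophages. With 11 B cells in infarct 2 the comparison was not tested. B cells also held members of the macrophages, with Ms4a6c at 172 CPM at baseline and 635, 715 and 452 CPM in the infarcts, and the part of free RNA or doublets in this was not tested. The B cells were 0.850% of the cells at baseline and 0.102% to 0.366% in the infarcts.

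The other genes of the family were read from a list of 14, the 12 remaining Ms4a genes in the tables and the related Tmem176a and Tmem176b. In each of the 8 comparisons 5 of the 14 passed the filter on low counts, namely Ms4a14, Ms4a4b, Ms4a8a, Tmem176a and Tmem176b. All 5 changed in classical monocytes against macrophages (2 higher, 3 lower), where 31.5% of 12425 genes did. All 5 also changed in Gpnmb-high against MHC-II-high macrophages (1 higher, 4 lower), where 28.0% of 11716 genes did. In interferon-response macrophages 1 changed, where 10.9% of 12301 genes did. Ms4a14, the gene downstream of Ms4a7, was at -3.46 in monocytes against macrophages where Ms4a7 was at -3.59, at -6.25 in type 2 dendritic cells where Ms4a7 was at -6.21, and at -1.85 in Arg1 Saa3 macrophages where Ms4a7 was at -1.93. Ms4a4b, known from T cells, rose by 2.53 in interferon-response macrophages, beside 2.45 for Ms4a4c. Ms4a8a was higher in Arg1 Saa3 macrophages, by 3.60 (SE 0.22, adjusted p = 1.7e-07), the opposite of every member that changed there. Tmem176a and Tmem176b, tetraspan proteins of antigen-presenting cells, fell by 2.03 and 1.89 in Gpnmb-high macrophages.

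Although Ms4a14 and Ms4a7 tracked each other between types, their ratio was not the same in the groups. In C1q-high macrophages there were 0.0741 UMIs of Ms4a14 for each UMI of Ms4a7 at baseline (1233 and 16645 UMIs) and 0.0233, 0.0182 and 0.0272 in infarct 1, 2 and 3. Every infarct value lay under the baseline value, since Ms4a14 went from 28.9 CPM to a mean of 65.7 ± 13.6 CPM (SD, n = 3), a smaller step than that of Ms4a7. The ratio was also lower in each infarct library within MHC-II-high Gpnmb-low macrophages, at 0.0712 against 0.0225, 0.0167 and 0.0258. In the same way Ms4a4b per Ms4a4c was 0.127 in baseline macrophages and 0.0402, 0.0354 and 0.0405 in infarct macrophages, on 146 to 226 UMIs of Ms4a4b. In interferon-response macrophages the baseline ratio of 0.0337, on 6 UMIs of Ms4a4b, lay within the infarct range of 0.0321 to 0.0492.

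**Figure D5:**
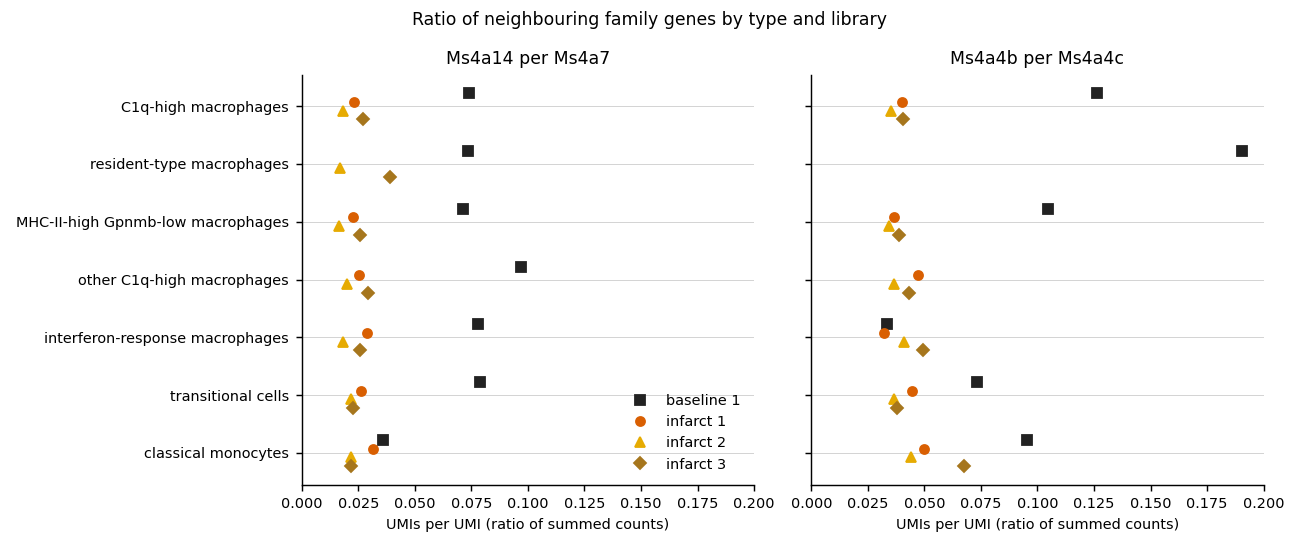
UMIs of Ms4a14 per UMI of Ms4a7 (left) and of Ms4a4b per UMI of Ms4a4c (right) on the x axis, by cell type (rows) and library (points). The baseline square lies right of the infarct points in C1q-high macrophages in both panels, at 0.0741 on the left and 0.127 on the right, whereas it lies among them for Ms4a4b in interferon-response macrophages.

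The partner list held Trem2 and its adaptor Tyrobp, and, for B cells, genes that include Cd22 and Cr2, while Clec7a was not analysed here. The 3 partners that passed the filter were all higher in Gpnmb-high than in MHC-II-high macrophages, where 28.0% of 11716 genes changed. Trem2 was higher by 1.17, Cd22 by 0.94 and Tyrobp by 0.31. In type 2 dendritic cells all 3 were lower than in macrophages, where 39.5% of 12499 genes changed. In classical monocytes against macrophages their directions differed, where 31.5% of 12425 genes changed. Tyrobp was at 0.40 there, Trem2 at -2.18 and Cd22 at -3.28. Trem2 was at 256 CPM in baseline C1q-high macrophages and at 1036 ± 69.5 CPM (SD, n = 3) in infarct ones. In interferon-response macrophages, where 6 of 7 members rose, Cd22 rose by 0.59 (adjusted p = 0.00015), while Trem2 was at 0.04 (adjusted p = 0.69) and Tyrobp at 0.04 (adjusted p = 0.50).

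The genes most like each member were sought over 46 sums of at least 50 cells (15 types, 4 libraries), which include baseline and infarct, among 7922 genes, and the correlations describe sums with libraries and overlapping types in common. Ms4a7 ran closest to Apoe, a lipid carrier (Pearson r of log2 levels 0.96), Lgmn, a lysosomal protease (0.95), and Rapsn (0.95). Ms4a6d ran with Fcgr1, the high-affinity IgG receptor (0.92), Clta (0.88) and Nxpe5 (0.88), and Ms4a6b with Ifi207, an interferon-inducible gene (0.90), Clec4a1 (0.83) and Cib2 (0.82). Ms4a6c ran with Clec4a3 (0.85), Ppfia4 (0.82) and Pld4 (0.80), Ms4a4c with Ifi205 (0.81), Zbp1, a sensor of nucleic acids (0.78), and BC147527 (0.77), and Ms4a4a, less closely, with Tpst2 (0.77), Lyz2 (0.75) and Lgals8 (0.73). Ms4a1 ran with Pax5, the transcription factor of B cell identity (0.96), Cd79a (0.92), which is part of the gate, and Ighd (0.89). Among the members themselves, Ms4a6b and Ms4a6c were the closest pair (0.89), followed by Ms4a7 and Ms4a6d (0.75), whereas Ms4a7 and Ms4a4c had an r of -0.17.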

How the data were processed

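Single-cell RNA-sequencing (10x Genomics 3′ chemistry) was analysed in 4 libraries. The deposited matrices hold unnormalised UMI counts, obtained by the authors with Cell Ranger (3.1.0 in the matrix headers, 3.0.1 in the submitters' notes) on mm10. Members, gates and gene lists were chosen with earlier results of these data known.

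Barcodes of 500 to 40000 UMIs and more than 200 genes entered the analysis. Mitochondrial genes were left out of levels and tests, no doublet caller was run, and cells meeting more than 1 lineage gate were dropped. Beyond the members, genes were named from the other family and partner lists (10 CPM or more in a type), as the 3 most correlated with each member, or as gate or check markers. Counts were summed per type and library. Types of at least 20 cells in each infarct library were compared with edgeR 4.0.16 in R 4.3.3 (TMM, filterByExpr, quasi-likelihood test, with the library as a block because each heart gave both sums) at a Benjamini-Hochberg adjusted p of 0.01. With the library as a block, the p-values measure how the difference between types varied over 3 hearts, not the spread of levels between hearts. On simulated counts of classical monocytes against C1q-high macrophages, 200 of 12425 genes were changed by 1 on the log2 scale. Of these, 63.5% were recovered, with 0 false calls. The simulation gave all genes the same dispersion and all hearts the same mean levels. It therefore does not measure the rate of false calls in these data. Infarct and baseline were compared without a test as log2 ratios with 1 CPM added, over genes at 10 CPM or more in a group. Intervals are exact 95% Poisson or binomial intervals and cover counting error only. Alternatives were DESeq2 1.42.0 (test and size factors), no filter, no block, leaving out each infarct library, thinning to 2000 or 1000 UMIs, stricter gates, cells over 20000 UMIs left out, TMM scaling, the mean of single-cell CPM and a pseudocount of 0.1 CPM.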

Additional observations from a re-analysis of the deposited data

Results flagged for a closer look

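For 3 comparisons the baseline library lay on the other side of 0 from all 3 infarct libraries, on the log2(CPM + 1) scale and with 20 or more cells in each type. The difference was not tested, and the baseline is 1 library. Ms4a6d in classical monocytes against C1q-high macrophages was at -0.17 at baseline and at 0.15 to 0.97 in the infarcts. Ms4a4c in Gpnmb-high against MHC-II-high Gpnmb-low macrophages was at 0.29 at baseline, where 61 Gpnmb-high cells were found, and at -1.30 to -0.65 in the infarcts. Ms4a6b in the same types was at -0.12 at baseline and at 0.03 to 0.11 in the infarcts, a change that did not pass the test there.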

How the results depend on the processing

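No member that was called between types turned direction under the alternatives run. Of the members' fold changes under an alternative, 451 kept their side of the threshold, 37 lost and 15 gained a call. Of the counts of members called, 73 stayed within 1.5 times and 7 did not. With no replicate block the counts were 0 in transitional cells and 0 in non-classical cells against classical monocytes, 1 in transitional cells against C1q-high macrophages, 2 in Gpnmb-high and 3 in Arg1 Saa3 macrophages. Cells thinned to 2000 UMIs, with fewer counts and gated anew, gave 1 in transitional cells against classical monocytes. That gating left 186, 129 and 100 transitional cells in infarct 1, 2 and 3, against 489, 341 and 269 before. Leaving out each infarct library in turn gave 3 to 5 in Arg1 Saa3 macrophages. No paired analysis of infarct against baseline was possible because the baseline is 1 library of pooled hearts.

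Against baseline, the number of members past 2-fold was 2 in all cells, or 3 with Ms4a1 lower when single-cell CPM were averaged or cells thinned, and 3 in C1q-high macrophages and 2 in classical monocytes under every alternative run.

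Shares of cells moved with depth. With 1000 UMIs and without thinning, Ms4a7 was found in 27.3% and 65.2% of baseline C1q-high macrophages, Ms4a6d in 12.5% and 50.03%, and Ms4a1 in 62.4% and 88.5% of baseline B cells. Infarct means with 1000 UMIs were 83.0% for Ms4a7 and 27.3% for Ms4a6d in C1q-high macrophages, and without thinning 77.5% for Ms4a6d there and 27.5% for Ms4a7 in type 2 dendritic cells. Counts of all genes called moved by over 1.5 times in 21 cases. With no block they were 209 against 1046 (transitional against classical), 415 against 1396 (transitional against macrophages), 119 against 845 (non-classical), 1687 against 3281 (Gpnmb-high) and 663 against 1338 (interferon-response). With DESeq2 they were 612, 422, 1986 and 890 for transitional against classical, non-classical, Gpnmb-high and interferon-response. In thinned cells they were 2096 against 3917 (classical monocytes), 253, 717, 1953 against 4934 (dendritic cells), 1566 and 672, for transitional against classical, transitional against macrophages, Gpnmb-high and interferon-response in this order. With no filter 1801 were called in transitional against classical monocytes. Leaving out 1 infarct library gave 520 to 566 there without infarct 2 or 1, 506 in transitional cells against macrophages and 1994 against 3055 in Arg1 Saa3 macrophages without infarct 3, and 555 in non-classical monocytes without infarct 2. The cause was not tested. Comparisons of resident-type macrophages and of B cells were not run, since an infarct library held under 20 cells.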

Other observations

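Outside the comparisons above, Ms4a4d was listed at 10 CPM or more in 1 gated type, the fibroblasts, at 367 CPM at baseline and at 16.8 to 88.6 CPM in the infarcts, from 3 to 23 cells a library. Mature dendritic cells (Ccr7, Fscn1, Ccl22), 67, 36 and 24 cells in infarct 1, 2 and 3, held low levels of most members, with Ms4a6b at 31.2, 8.46 and 0 CPM and Ms4a6d at 35.4, 8.46 and 25.8 CPM, below type 2 dendritic cells in each heart. Ms4a6c was at 87.5, 93.1 and 82.7 CPM in the mature cells against 815, 888 and 853 CPM in type 2 dendritic cells. These differences were not tested.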
